A study of Homo sapiens with 4 samples.

Results

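Glycolysis splits glucose into pyruvate in the cytosol, first investing ATP in the preparatory steps and then recovering it in the payoff steps. The pentose phosphate pathway leaves glycolysis at glucose 6-phosphate, makes NADPH and ribose phosphate in its oxidative part, and returns sugars to glycolysis through transketolase and transaldolase. Pyruvate is either reduced to lactate and exported or oxidized by the mitochondrial pyruvate dehydrogenase complex, which is switched off by its kinases and on by its phosphatases. HEK293T, a human embryonic kidney line that grows quickly in glucose-rich medium, uses these pathways heavily. GAPDH, the glycolytic dehydrogenase that oxidizes glyceraldehyde 3-phosphate, is also a customary reference mRNA in RT-qPCR.

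The 34 genes examined were given as a list of symbols that cover glucose uptake, every glycolytic step, the PFKFB enzymes that set fructose 2,6-bisphosphate, lactate formation and export, pyruvate dehydrogenase with its kinases, and the pentose phosphate pathway. All 34 symbols were found among the 27011 genes of the count table, and 32 of them were among the 10978 genes tested. ENO3 and SLC16A3 were not tested because they are outside the gene set of the deposited comparison.

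RNA-Seq had been performed on 4 libraries of HEK293T cells, 2 biological replicates of WT cells and 2 of HELZ-null cells. HELZ is a putative SF1 helicase that binds the CCR4–NOT deadenylase complex, and the HELZ-null line had been made from HEK293T with Cas9 and a guide RNA to helz, which left a frameshift deletion. Both cell types were grown alike, without any other treatment, and the HELZ-null libraries came from 1 edited line, so that effects of the edit and of the line's history cannot be told apart. Levels are TMM-normalized CPM, the counts of a gene scaled to the size of its library. A gene was called up- or down-regulated when edgeR's quasi-likelihood test, adjusted over all tested genes, gave it an FDR under 0.005. Where a library was left out, its group held 1 library, whose spread was taken to equal that of the other group.

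Library totals ranged from 41745401 to 70464140 counts. HELZ itself was at 99.8 and 104 CPM in WT cells and at 36.98 and 37.9 CPM in HELZ-null cells, lower in both libraries labelled HELZ-null. All 7 genes of the HEK293 marker list were detected in every library, with PAX2 lowest at 5.19 to 7.07 CPM and outside the tested set. Of the 6 tested markers 3 were down-regulated, KRT8 (log2FC -0.98), KRT18 (-0.16) and VIM (-0.14), and 1 was up-regulated, NEFM (0.89), where 15.5% of all tested genes were down-regulated and 13.9% up-regulated. The call of KRT18 was lost with total-count scaling and with DESeq2, and without HELZ-null replicate 2 only 1 of the markers was called down. Of 12 markers of other cell types none was among the tested genes, and HBB and INS had 0 counts in every library. EPCAM, an epithelial marker, was at 1.29 and 1.39 CPM in WT cells and at 0.387 and 0.516 CPM in HELZ-null cells. The part of these marker differences in the results was not tested.

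In RT-qPCR, gapdh had served the study as the reference mRNA, and its 2 primers show which part of the transcript that measurement reads. GAPDH lies on chromosome 12 of hg19 (GRCh37) at chr12:6643678-6647540 on the plus strand. The forward primer matched exon 1, in the 5′ UTR, at chr12:6643686-6643707. The reverse primer matched exon 4, in the coding sequence, at chr12:6645896-6645917. On the canonical transcript of 1285 nt and 9 exons the product spans 270 nt, and both primers are shown 5′ to 3′.
gapdh forward: CTCTGCTCCTCCTGTTCGACAG
gapdh reverse: TTCCCGTTCTCAGCCTTGACGG

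GAPDH was at 2770 and 2698 CPM in the WT libraries and at 2392 and 2389 CPM in the HELZ-null libraries. Both HELZ-null values were below both WT values. The mRNA stood at 87.4% of its WT level, with a log2FC of -0.19 (standard error 0.025, FDR = 4.42e-08). Among the 27011 genes GAPDH ranked 37th in WT cells per kilobase of gene width, at 1397 FPKM. The annotation lists 65 GAPDH pseudogenes and none had a row of its own in the count table, and whether reads from them were added to or lost from GAPDH was not tested.

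Across the pathway, 12 of the 32 tested genes were down-regulated in HELZ-null cells and 4 were up-regulated, which is 37.5% and 12.5%. Over all tested genes 15.5% were down-regulated and 13.9% up-regulated. The median log2FC of the 32 genes was -0.05, or 0.965-fold, against -0.00091 over all tested genes. Below 0 were 20 of the 32 (62.5%), against 50.2% of all tested genes. The median of the 32 was -0.018 when libraries were scaled by total counts only and -0.034 after subtraction of the medians of neighbouring genes. Most changes were small, with 13 of the 16 called genes changing less than 1.2-fold and none changing 2-fold. WT and HELZ-null values did not overlap for 24 of the 32 genes (75%), close to the 70.6% of all tested genes. The remaining 16 genes had log2FC values from -0.11 to 0.24 and were not called.

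**Figure D1:**
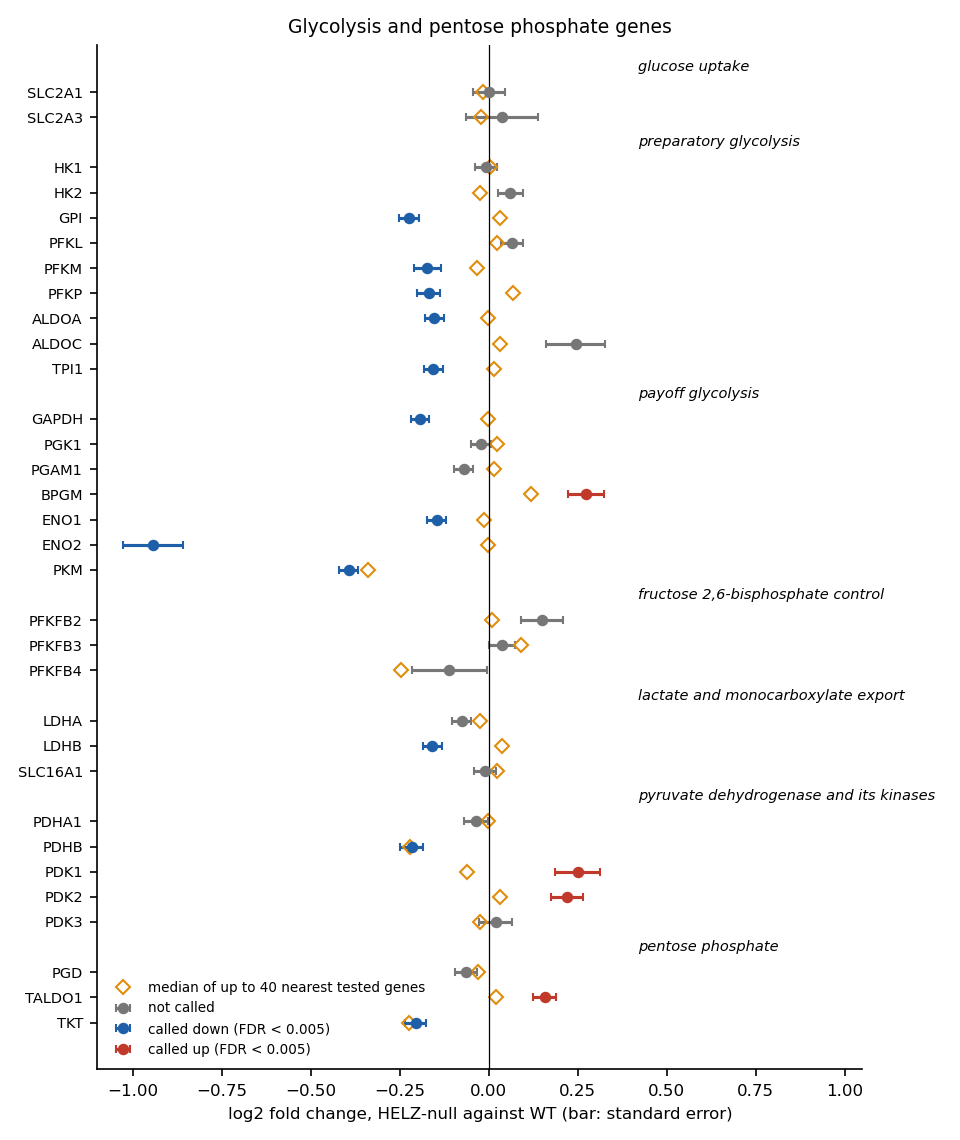
Log2 fold change (HELZ-null against WT) with its standard error for the 32 tested genes, grouped by role, with the median log2 fold change of the neighbouring genes as open diamonds. ENO2 lies farthest from 0 at -0.94, most preparatory and payoff enzymes called down lie near -0.2, and the PKM, PDHB and TKT symbols lie close to their diamonds.

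The lowered genes were mainly the abundant ones. At a mean log2 CPM of at least 8, a limit chosen after the values were seen, all 12 genes of the list had a log2FC below 0. Over all 617 tested genes at that level 63.0% were below 0. PGK1 and SLC16A1 lay close to 0 and turned to 0.011 and 0.022 with scaling by total counts only, and PGK1 also turned without WT replicate 1 (0.012) and SLC16A1 without WT replicate 2 (0.046) or with the GC trend removed (0.018). Of the 12, 8 were down-regulated and 0 up-regulated, with a median log2FC of -0.15. Abundant genes were lowered more often throughout the transcriptome, as 31.4% of the 617 tested genes at that level were down-regulated and 13.0% up-regulated, with a median of -0.04. The 20 less abundant genes of the list held 4 down-regulated and 4 up-regulated genes, with a median log2FC of 0.03. All 34 genes together took 1.55% and 1.51% of the counts in WT cells and 1.42% in each HELZ-null library. The payoff enzymes accounted for most of that difference, at 0.80% ± 0.023 (SD, n = 2) of the counts in WT cells and 0.72% ± 0.00039 (SD, n = 2) in HELZ-null cells.

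**Figure D2:**
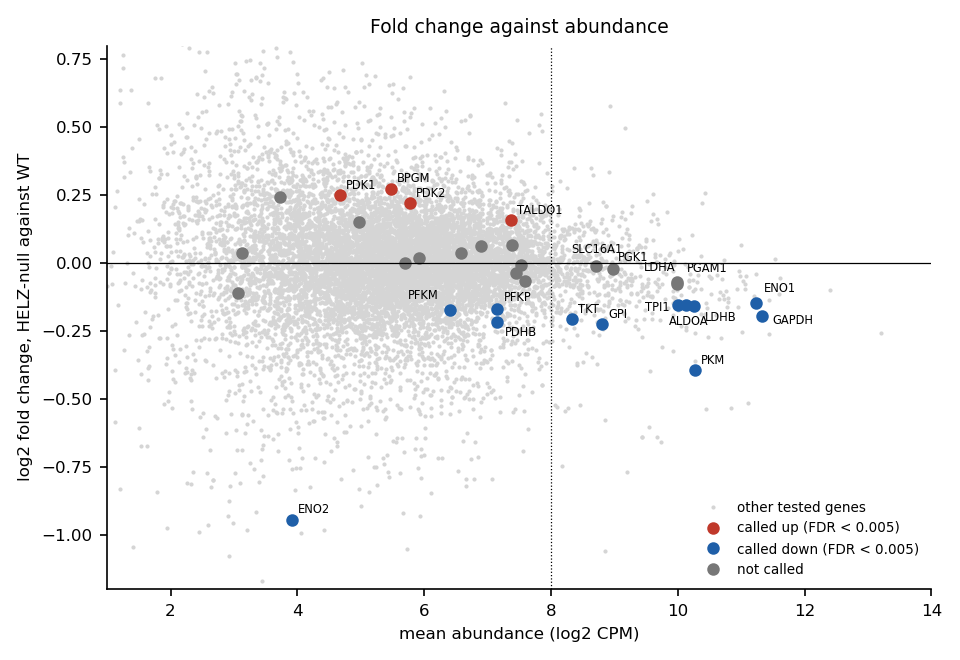
Log2 fold change (HELZ-null against WT) against mean abundance in log2 CPM for all tested genes (grey) and the 32 tested genes of the list (coloured by call), with genes beyond the axes not drawn. To the right of the dotted line at a log2 CPM of 8 all 12 coloured genes lie below 0, as do 63.0% of all tested genes there. The 4 coloured genes called up lie to its left.

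None of the 2 glucose transporters and 2 hexokinases of the list was called. SLC2A1, the basal glucose transporter, was at 52.7 and 51.3 CPM in WT cells and at 52.1 and 52.0 CPM in HELZ-null cells, a log2FC of 3.9e-05 with a standard error of 0.046. SLC2A3, a high-affinity glucose transporter, was at 8.65 and 8.61 CPM in WT cells and at 8.78 and 8.91 CPM in HELZ-null cells. Hexokinase traps glucose as glucose 6-phosphate. HK1 was at 184 and 186 CPM in WT cells and at 181 and 186 CPM in HELZ-null cells. HK2, the inducible hexokinase, was at 119 and 114 CPM in WT cells against 122 and 121 CPM in HELZ-null cells (log2FC 0.06, standard error 0.034). The WT and HELZ-null values overlapped for SLC2A1 and HK1.

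Of the 9 preparatory genes, 5 (55.6%) were down-regulated and 0 up-regulated, with a median log2FC of -0.15. Over all tested genes 15.5% were down-regulated and 13.9% up-regulated, and 31.4% were down-regulated at a log2 CPM of at least 8. GPI, which interconverts glucose 6-phosphate and fructose 6-phosphate, was at 488 and 478 CPM in WT cells and at 414 and 413 CPM in HELZ-null cells (log2FC -0.22, standard error 0.028, FDR = 1.18e-08). TPI1, which interconverts the triose phosphates, was at 1116 and 1049 CPM in WT cells and at 973 and 971 CPM in HELZ-null cells (log2FC -0.16, standard error 0.028). For both genes every HELZ-null library was below every WT library. Of the 4 TPI1 pseudogenes in the annotation, 2 had rows of their own in the count table.

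Phosphofructokinase catalyses the committed step of glycolysis, and 2 of its 3 isozymes were down-regulated, where 15.5% of all tested genes were. PFKM, the muscle type, was at 92.4 and 87.1 CPM in WT cells and at 79.3 and 80.2 CPM in HELZ-null cells (log2FC -0.17, standard error 0.038, FDR = 3.03e-04). Its call was lost without WT replicate 1 (log2FC -0.13) and without HELZ-null replicate 1 (-0.16). PFKP, the platelet type, was at 154 and 147 CPM in WT cells and at 135 and 133 CPM in HELZ-null cells (log2FC -0.17, standard error 0.033). PFKL, the liver type, was at 162 and 164 CPM in WT cells and at 169.9 and 171 CPM in HELZ-null cells (log2FC 0.06, standard error 0.031), and was not called. The difference between the isozymes was not tested. Per kilobase of gene width, PFKL made up 39.2% ± 1.1 of the summed phosphofructokinase FPKM in WT cells and 43.1% ± 0.15 in HELZ-null cells (SD, n = 2 each), and PFKP 41.6% and 39.0%. With 2 libraries a group an exact two-sided permutation test of such shares cannot give a p below 0.333. SENP1 overlaps PFKM on the other strand with counts worth 73.1% of those of PFKM, and the use of strand in counting is not stated.

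Aldolase cleaves fructose 1,6-bisphosphate. ALDOA, the main aldolase, was at 1193 and 1162 CPM in WT cells and at 1066 and 1053 CPM in HELZ-null cells (log2FC -0.15, standard error 0.026, FDR = 7.62e-06). ALDOC, the brain type, was at 11.8 and 12.3 CPM in WT cells and at 14.8 and 13.8 CPM in HELZ-null cells. Its log2FC of 0.24 (standard error 0.084) was not called. The ALDOC share of aldolase FPKM was 1.96% ± 0.082 in WT cells and 2.57% ± 0.097 in HELZ-null cells (SD, n = 2 each). SGK494, which overlaps ALDOC on the same strand, had counts worth 15.6% of those of ALDOC.

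In the payoff steps 4 of 7 tested genes (57.1%) were down-regulated and 1 (14.3%) up-regulated, against 15.5% and 13.9% of all tested genes. Their median log2FC was -0.15. Besides GAPDH, PGK1, the first enzyme of glycolysis to yield ATP, was at 522 and 498 CPM in WT cells and at 504 and 501 CPM in HELZ-null cells, so that the groups overlapped. PGAM1, which moves the phosphate of phosphoglycerate, was at 1048 and 1022 CPM in WT cells and at 983 and 989 CPM in HELZ-null cells (log2FC -0.07, standard error 0.026, not called). BPGM, whose product 2,3-bisphosphoglycerate is known from red blood cells, was at 41.3 and 39.1 CPM in WT cells and at 47.3 and 49.8 CPM in HELZ-null cells. BPGM was up-regulated, with a log2FC of 0.27 (standard error 0.050, FDR = 2.09e-05).

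The enolases, which make phosphoenolpyruvate, held the largest change of the list. ENO2, the neuron-specific enolase, was at 20.8 and 18.5 CPM in WT cells and at 9.44 and 10.9 CPM in HELZ-null cells. These values rest on 1309 and 760 counts in WT cells and 390 and 761 counts in HELZ-null cells. ENO2 mRNA remained at 51.7% of the WT level, with a log2FC of -0.94 (standard error 0.085, FDR = 4.10e-12). ENO1, the ubiquitous enolase, was at 2609 and 2436 CPM in WT cells and at 2269 and 2289 CPM in HELZ-null cells (log2FC -0.15, standard error 0.027). Its call was lost without HELZ-null replicate 1 (-0.14), and with single libraries left out its log2FC ranged from -0.19 to -0.096. Both enolases fell, and because ENO1 is far more abundant, ENO2 accounted for 1.04% ± 0.035 of enolase FPKM in WT cells and 0.60% ± 0.057 in HELZ-null cells (SD, n = 2 each). ENO3, the muscle enolase, had 48 and 25 counts in WT cells and 25 and 75 in HELZ-null cells, and overlaps the abundant PFN1 on the other strand. LRRC23 overlaps ENO2 on the same strand with counts worth 29.97% of those of ENO2, and its own log2FC was 0.02.

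PKM, pyruvate kinase, was at 1429 and 1374 CPM in WT cells and at 1075 and 1060 CPM in HELZ-null cells. It stood at 76.2% of the WT level, with a log2FC of -0.39 (standard error 0.027, FDR = 1.47e-15), the next largest change of the list after ENO2. Gene counts do not separate the M1 and M2 transcripts of PKM.

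**Figure D3:**
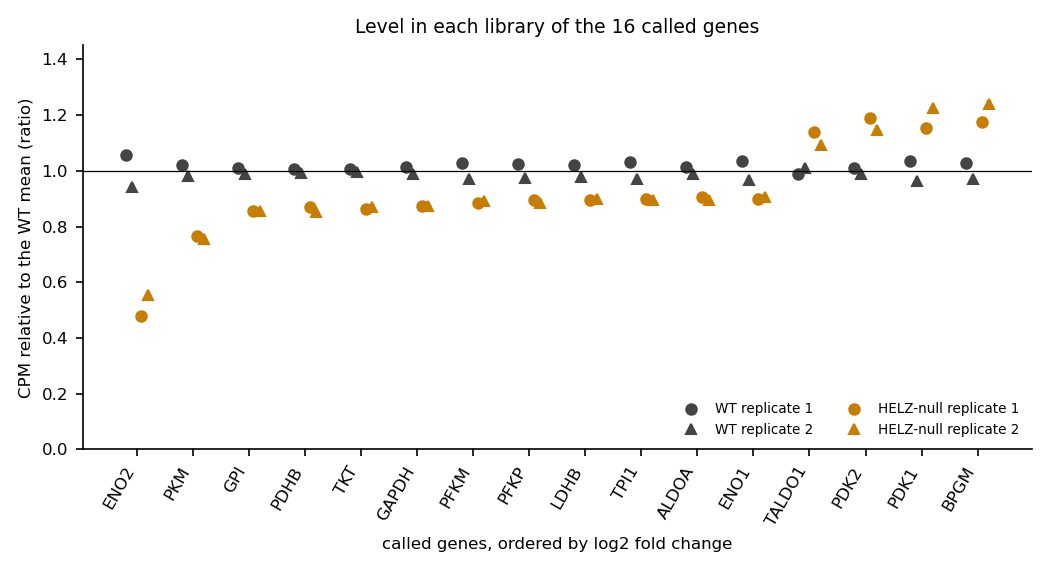
CPM of the 16 called genes in each of the 4 libraries, divided by the mean of the WT libraries, ordered by log2 fold change. For every gene both HELZ-null symbols lie on one side of both WT symbols. The genes were chosen by their calls in these same libraries, and 70.6% of all tested genes also showed no overlap. ENO2 lies near 0.5, PKM near 0.75, 10 further genes below 1 and 4 above 1.

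The PFKFB enzymes make and remove fructose 2,6-bisphosphate, the activator of phosphofructokinase, and none of 3 was called with all libraries. PFKFB3, which mainly makes it, was at 96.2 and 91.9 CPM in WT cells and at 97.2 and 95.9 CPM in HELZ-null cells. PFKFB2 was at 31.3 and 27.7 CPM in WT cells and at 33.7 and 32.2 CPM in HELZ-null cells (log2FC 0.15, standard error 0.060). With single libraries left out its log2FC ranged from 0.072 to 0.25, and it was called without WT replicate 1. PFKFB4 was at 9.06 and 8.12 CPM in WT cells and at 7.72 and 8.22 CPM in HELZ-null cells (log2FC -0.11, standard error 0.105), and its log2FC ranged from -0.18 to -0.022 with single libraries left out. YOD1 overlaps PFKFB2 on the other strand with counts worth 315% of those of PFKFB2. PFKFB3 supplied 78.0% of the PFKFB FPKM in WT cells and 77.7% in HELZ-null cells, and these shares overlapped.

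Lactate dehydrogenase interconverts pyruvate and lactate. LDHB, the heart type, was at 1324 and 1268 CPM in WT cells and at 1158 and 1163 CPM in HELZ-null cells (log2FC -0.16, standard error 0.027, FDR = 5.02e-06). LDHA, the muscle type, was at 1041 and 1048 CPM in WT cells and at 981 and 1000 CPM in HELZ-null cells (log2FC -0.08, standard error 0.026), which did not pass the threshold. LDHB held the larger share of lactate dehydrogenase FPKM, at 66.4% in WT cells and 65.2% in HELZ-null cells. SLC16A1, the main lactate exporter measured here, was at 406 and 439 CPM in WT cells and at 419 CPM in both HELZ-null libraries. SLC16A3, the exporter typical of glycolytic muscle, had 38 and 11 counts in WT cells and 19 and 22 in HELZ-null cells. In a fit over all genes with a count it was not called (log2FC -0.28, FDR = 0.72).

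Of the 2 subunits of pyruvate dehydrogenase 1 was down-regulated, and of its 3 kinases 2 were up-regulated. Over all tested genes 15.5% were down-regulated and 13.9% up-regulated. PDHB, the beta subunit of the decarboxylase, was at 153 and 151 CPM in WT cells and at 132 and 129.7 CPM in HELZ-null cells (log2FC -0.22, standard error 0.033, FDR = 7.39e-07). PDHA1, the alpha subunit that the kinases phosphorylate, was at 182 and 173 CPM in WT cells and at 168 and 177 CPM in HELZ-null cells and was not called. PDK1 was at 24.0 and 22.3 CPM in WT cells and at 26.7 and 28.3 CPM in HELZ-null cells (log2FC 0.25, standard error 0.063, FDR = 1.37e-03). PDK2 rose from 51.01 and 50.03 CPM in WT cells to 60.01 and 57.96 CPM in HELZ-null cells (log2FC 0.22, standard error 0.045, FDR = 1.01e-04). PDK3 was at 57.5 and 62.4 CPM in WT cells and at 63.6 and 58.0 CPM in HELZ-null cells, and the groups overlapped. PDK2 is the most abundant per kilobase, with 63.6% of the kinase FPKM in WT cells and 65.0% in HELZ-null cells. The call of PDK1 was lost with DESeq2 (log2FC 0.25), without WT replicate 2 (0.20) and without HELZ-null replicate 2 (0.20).

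Of the other 9 genes that govern pyruvate entry into mitochondria, 2 (22.2%, against 15.5% of all tested genes) were down-regulated and 0 up-regulated, with a median log2FC of -0.02. Both were the phosphatases that reactivate pyruvate dehydrogenase. PDP1 was at 30.6 and 30.4 CPM in WT cells and at 26.0 and 23.9 CPM in HELZ-null cells (log2FC -0.30, standard error 0.061). PDP2 was at 42.8 and 40.2 CPM in WT cells and at 36.2 and 34.01 CPM in HELZ-null cells (log2FC -0.25, standard error 0.053). Without WT replicate 1 the call of PDP2 was lost (log2FC -0.20), and without HELZ-null replicate 2 those of PDP1 (-0.23), PDP2 (-0.20) and PDK1 were lost.

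In the pentose phosphate pathway TALDO1, transaldolase, was up-regulated and TKT, transketolase, was down-regulated. TALDO1 was at 155 and 158 CPM in WT cells and at 178 and 171 CPM in HELZ-null cells (log2FC 0.16, standard error 0.032, FDR = 1.14e-04), a call lost without HELZ-null replicate 1 (0.13). TKT was at 346 and 342 CPM in WT cells and at 297 and 299.9 CPM in HELZ-null cells (log2FC -0.21, standard error 0.028, FDR = 1.37e-07). PGD, the second dehydrogenase of the oxidative part, was at 195 and 198 CPM in WT cells and at 187 and 188 CPM in HELZ-null cells (log2FC -0.07, standard error 0.031), without overlap but not called. Of 6 further tested genes of the pathway, 2 (33.3%) were up-regulated and 1 (16.7%) down-regulated, against 13.9% and 15.5% of all tested genes. PGLS, the lactonase of the oxidative part, rose from 41.7 and 43.1 CPM to 51.1 and 53.1 CPM (log2FC 0.30, standard error 0.048). RPE, the epimerase of the non-oxidative part, fell from 97.2 and 100.5 CPM to 84.8 and 85.1 CPM (log2FC -0.22, standard error 0.036).

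Some of these changes were shared with the genes next to them on the chromosome. For each gene, the log2FC was set beside the median log2FC of its neighbours, the 20 nearest tested genes on each side as far as the chromosome allowed, leaving out overlapping genes. A neighbour median at or beyond 0.15 in absolute value was found for 4 of the 34 genes, PKM, PFKFB4, PDHB and TKT, and for 7.90% of all tested genes with a position. Between replicates of 1 cell type, the neighbour medians of the 34 genes stayed within -0.032 and 0.029.

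PKM lies on chromosome 15 (chr15:72491370-72524160, minus strand), and the median over its 40 neighbours was a log2FC of -0.34. Among the 40, 34 were down-regulated, 0 were up-regulated and 39 were below 0. PKM differed from its neighbours by -0.05, so that most of its decrease was common to that stretch of the chromosome. TKT (chr3:53258728-53290068, minus strand) and PDHB (chr3:58413357-58419584, minus strand) share part of their neighbours on chromosome 3, whose medians were -0.23 and -0.22. In each set 26 of 40 neighbours were down-regulated and 0 up-regulated. After subtraction of the neighbour medians, TKT stood at 0.019 and PDHB at 0.0041. PFKFB4, also on chromosome 3, had neighbours at -0.25 and was itself at -0.11 and not called. BPGM on chromosome 7 lay among raised genes, with a neighbour median of 0.12 and 19 of 40 neighbours up-regulated.

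The other lowered enzymes lay among genes that did not move with them. GAPDH, TPI1 and ENO2 lie together on chromosome 12, with the start of TPI1 333 kb and that of ENO2 379 kb from that of GAPDH, so that their sets of neighbours overlap. Their neighbour medians were -0.001, 0.013 and -0.003, and of the 40 neighbours of GAPDH 8 were down-regulated and 4 up-regulated. GPI, ALDOA, ENO1, PFKP, PFKM and LDHB had neighbour medians between -0.03 and 0.07. Of the 12 down-regulated genes 10 were below the median of their neighbours, and the median of the 12 differences was -0.16. These 12 were chosen by their own decrease, so a value below the neighbours followed wherever the neighbours had not fallen. Over all 32 tested genes the median difference was -0.03.

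**Figure D4:**
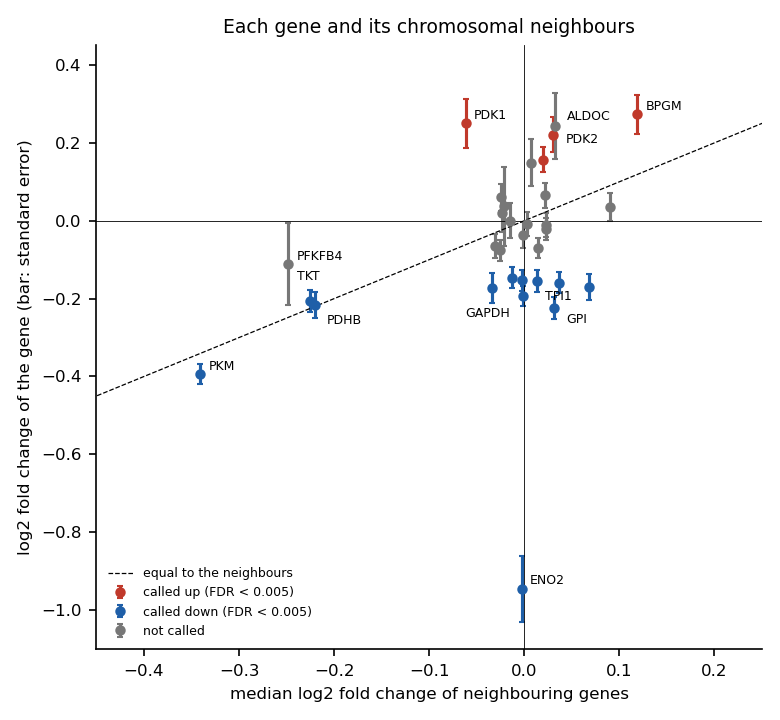
Log2 fold change of each of the 32 tested genes with its standard error against the median log2 fold change of its neighbours, with the dashed line marking equality. PKM, TKT and PDHB lie near the line at negative values, whereas GAPDH, TPI1, GPI and ENO2 lie below it with neighbour medians near 0.

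Lists of related metabolic genes showed calls in both directions, read against 15.5% down-regulated and 13.9% up-regulated over all tested genes. Among 10 tested further isozymes of the same steps, 1 was up-regulated and 1 down-regulated. They were SLC2A12, a glucose transporter (log2FC 0.39), and ADPGK, the ADP-dependent glucokinase (log2FC -0.34), whose neighbours on chromosome 15 were at -0.40. The call of SLC2A12 was lost without WT replicate 1 (0.31) and without HELZ-null replicate 1 (0.36). Among 21 tested genes of glycogen and hexose entry, 5 were down-regulated and 1 up-regulated. The largest changes were those of KHK, the fructokinase (log2FC -0.56), MPI, mannose phosphate isomerase (-0.48, neighbours -0.34), GYS1, muscle glycogen synthase (-0.30), and GFPT1, the entry enzyme of hexosamine synthesis (-0.27). Of the 2 tested gluconeogenic genes, the mitochondrial PCK2 was down-regulated (log2FC -0.50) and the glucose 6-phosphatase G6PC3 up-regulated (0.17). The serine and glycerate branch, which leaves glycolysis at 3-phosphoglycerate, had 2 of 7 genes down-regulated, PSAT1 (log2FC -0.29) and SHMT2 (-0.24), and 0 up-regulated.

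Downstream of pyruvate, 5 of 18 citrate cycle genes (27.8%) were down-regulated and 2 (11.1%) up-regulated, against 15.5% and 13.9% of all tested genes. Their median log2FC was -0.02. Scaling by total counts gave 3 and 3 in place of 5 and 2, DESeq2 gave 3 and 1, and leaving out HELZ-null replicate 2 gave 2 and 0. IDH3A was lowest at -0.47, with neighbours on chromosome 15 at -0.36, followed by SUCLG2 at -0.31, with neighbours on chromosome 3 at -0.18. DLST, a subunit of 2-oxoglutarate dehydrogenase, was at -0.16, and IDH3B, a partner of IDH3A in the same dehydrogenase, was at 0.18. Without HELZ-null replicate 2 the calls of DLST (-0.15) and IDH3B (0.16) were lost, as was that of DLST without WT replicate 1 (-0.11). Of 9 tested genes of the glycerol phosphate and malate shuttles, which carry cytosolic NADH equivalents into mitochondria, 2 were down-regulated and 0 up-regulated. These were GOT1 (log2FC -0.15) and SLC25A11 (-0.13). The call of GOT1 was lost without WT replicate 1 (-0.10), HELZ-null replicate 1 (-0.15) or HELZ-null replicate 2 (-0.14), and that of SLC25A11 without HELZ-null replicate 1 (-0.12) or 2 (-0.14). Scaling by total counts also ended both calls, and DESeq2 ended that of GOT1.

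Hypoxia-inducible factor (HIF) is known to induce most glycolytic enzymes together with PDK1, and VHL and EGLN1 act in its degradation. Among 9 tested HIF pathway regulators 4 (44.4%) were down-regulated and 1 (11.1%) up-regulated, against 15.5% and 13.9% of all tested genes. These counts became 3 and 2 with scaling by total counts only. ARNT2, a HIF partner subunit, was at -0.75 (neighbours -0.33), VHL at -0.42 (neighbours -0.19) and EGLN1 at -0.35 (neighbours -0.46), and EPAS1, a HIF alpha subunit, was at 0.26 (neighbours 0.02). Of 17 tested HIF targets outside glycolysis, 5 (29.4%) were down-regulated and 4 (23.5%) up-regulated, with a median log2FC of 0.01. ADM (log2FC -0.68) and VEGFA (-0.27) were down-regulated, and BNIP3L (0.40) and MXI1 (0.29) up-regulated. EPAS1 was no longer called without WT replicate 1 (0.19) or HELZ-null replicate 1 (0.23), nor was VEGFA without HELZ-null replicate 1 (-0.22). Among 12 tested other regulators of glycolysis 4 (33.3%) were down-regulated and 1 (8.3%) up-regulated, which likewise became 3 and 2 with total counts. ARRDC4, an inhibitor of glucose uptake, was at -0.34 (neighbours -0.31), FOXK1, a transcription factor that promotes glycolysis, at -0.25 and PRKAA2, a catalytic subunit of AMP-activated kinase, at -0.22.

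The core of the HIF binding site, ACGTG, which is also contained in the CACGTG box bound by MYC, was searched in promoter windows from RefSeq (GRCh38.p14), on both strands, from 250 bases before to 50 after each start. A CACGTG box counts as a match on both strands. Of the 34 genes 31 had a window, and 19 of the 31 (61.3%) held the core in at least 1 window, against 24.9% of 27305 genes with a window and 33.4% of the 8526 tested ones. Genes can have several windows, and their number was not equalized. The core was found in 8 of 12 down-regulated genes, 3 of 4 up-regulated genes and 7 of 13 genes not called. It thus occurred on both sides of 0, and PKM, ENO1, LDHB, TKT and TALDO1 had no match in their windows. The first match is shown for GPI, GAPDH and ENO2, which were down-regulated, and for PDK1 and BPGM, which were up-regulated, 5′ to 3′ in the direction of the gene, with the core or its reverse complement in capitals.
GPI, chr19:34364820-34364844, plus strand: actgcctgtaACGTGgaaggtgttc
GAPDH, chr12:6535173-6535197, plus strand: tctgcggggtCACGTgtcgcagagg
ENO2, chr12:6914452-6914476, plus strand: ccgcgctcgtACGTGcgcctccgcc
PDK1, chr2:172556063-172556087, plus strand: tgctgcccgcCACGTccctcacgta
BPGM, chr7:134646796-134646820, plus strand: aggacctgccCACGTctggttcagg

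The decrease of GAPDH bears on values expressed relative to it. A ratio to GAPDH adds the same 0.19 to the log2FC of every gene. In 9 of the 31 other tested genes the log2FC was within 0.05 of that of GAPDH. PGK1, another glycolytic enzyme used as a reference, was at -0.02 (standard error 0.028).

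Among 26 genes in common use as RT-qPCR references, all tested, 7 (26.9%) were down-regulated and 3 (11.5%) up-regulated, against 15.5% and 13.9% of all tested genes and 31.4% and 13.0% of those with a log2 CPM of at least 8. The median log2FC was -0.03. With scaling by total counts 4 were down-regulated and 5 up-regulated, so that the balance of the calls turned, and without HELZ-null replicate 1 or 2 there were 4 and 1. The lowest was EEF1A1 at -0.26 (standard error 0.025, FDR = 2.81e-11). GAPDH and RPL13A came next, both at -0.19 (standard errors 0.025 and 0.026). The highest was POLR2A at 0.33 (standard error 0.027, FDR = 3.94e-13). The mRNAs of SPARC, BASP1 and TENM1 had been measured by RT-qPCR against gapdh. In the RNA-Seq counts SPARC was 3.08-fold higher in HELZ-null cells by CPM and 3.52-fold higher relative to GAPDH. Over the 26 references its fold ranged from 2.44 with POLR2A to 3.68 with EEF1A1, with a median of 3.15. BASP1 was 2.84-fold higher by CPM, 3.25-fold relative to GAPDH and 2.26-fold to 3.40-fold over the references. TENM1 was 2.13-fold higher by CPM, 2.43-fold relative to GAPDH and 1.69-fold to 2.54-fold over the references. For each of the 3 mRNAs the direction was the same with every reference, and 1 reference for SPARC and 2 for BASP1 and TENM1 gave a higher fold than GAPDH. These ratios are of RNA-Seq counts and not of RT-qPCR values.

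**Figure D5:**
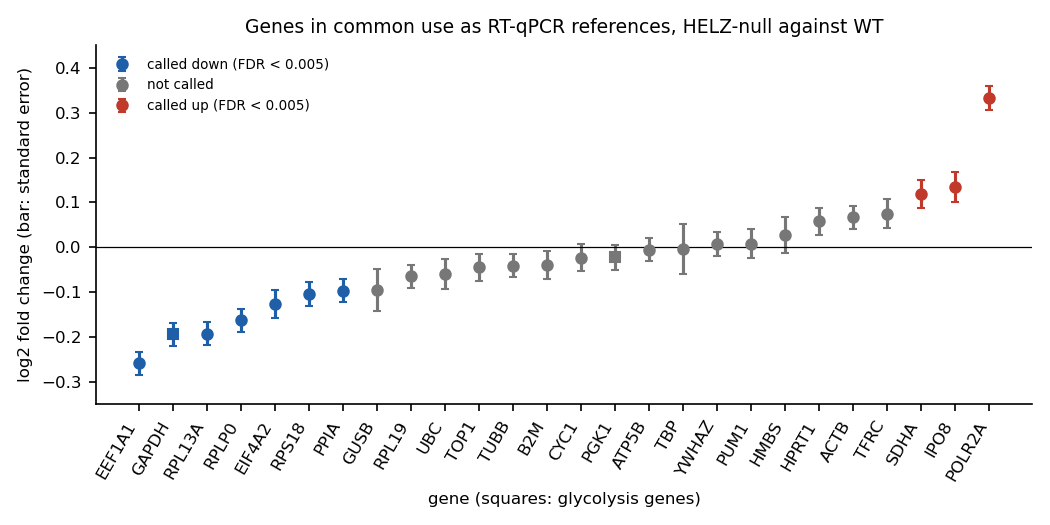
Log2 fold change (HELZ-null against WT) with its standard error for 26 genes in common use as RT-qPCR references, ordered by value, with glycolysis genes as squares. EEF1A1 at -0.26 lies lowest, followed by GAPDH and RPL13A at -0.19, POLR2A at 0.33 lies highest, and PGK1 lies near 0.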

How the data were processed

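RNA-Seq had been done on total RNA of 2 WT and 2 HELZ-null cultures with the TruSeq RNA Sample Prep Kit and paired-end reads. Reads that matched ribosomal RNA in Bowtie2 were discarded by the authors, the rest were aligned to hg19 by TopHat2, and QuasR gave the raw counts per gene that were deposited, beside a gene width in bases. Tool versions, gene annotation, strand and the counting of mates are not given in the sources used here. A second deposited table is the authors' own edgeR comparison of genes with an FPKM above 2, in log2 units with p-values. Its values were not used, and its 10978 genes defined the tested set.

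The tests used edgeR 4.0.16 under R 4.3.3 (TMM, glmQLFit and glmQLFTest, genotype as the only term, Benjamini-Hochberg adjustment over 10978 genes) with calls at an FDR under 0.005. The standard error is the absolute log2FC over the square root of F. CPM refer to the counts in tested genes (97.8% of each library), and FPKM were computed from library totals and the deposited width. A floor of 3 counts corresponds to 0.043 to 0.073 CPM and covers counting error only. Neighbours used GENCODE gene positions on GRCh37, where 10379 tested genes matched by symbol, 517 more through older symbols, and 82 did not match. The study states biological replicates, and p-values measure the spread between these libraries only.

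All 34 genes were named. Of the other lists, each called gene was named where there were 4 or fewer, and otherwise the 4 with the largest absolute log2FC. Of the reference genes, the lowest and the highest were named, and RPL13A because it lay beside GAPDH. A few genes of the other lists are counted but not reported here by name. The genes, the lists and the tests were chosen with earlier results of these data known. Of 200 genes changed 1.5-fold in simulated data of 10978 genes, 196 were called, as were 2 unchanged genes. Smaller changes were not simulated, although 13 of the 16 called genes of the list changed less than 1.2-fold. The simulated counts used the spread that the fit had estimated from these libraries. Alternatives covered scaling, DESeq2 1.42.0, gene filters, thinning, halved counts, a GC trend, a 1.2-fold test, an FDR under 0.05, a replicate block and single libraries left out.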

Additional observations from a re-analysis of the deposited data

How the results depend on the processing

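GAPDH, at a log2FC of -0.19, stayed below 0 under every alternative run, and 12 genes were down- and 4 up-regulated with all libraries and the settings of the report. A test against a 1.2-fold change called 2 genes down (PKM and ENO2) and 0 up, and GAPDH at -0.19 no longer passed (FDR = 1.0). The median log2FC of -0.05 moved to -0.018 when libraries were scaled by total counts only and to -0.034 after subtraction of the neighbour medians, which also turned PDHB to 0.0041 and TKT to 0.019. Of the genes not called, PFKFB4 went from -0.11 to 0.14 and PFKFB3 from 0.04 to -0.054. Counting both, the subtraction moved 10 genes other than PDHB and TKT by more than the spread between replicates, with PKM (to -0.053), BPGM (0.15), GPI (-0.26) and PFKP (-0.24) among them, and left 20 within it. With single libraries left out, where the spread comes from the other group alone, 10 to 13 genes were down- and 3 to 5 up-regulated, the median ranged from -0.073 to -0.0486, and GAPDH from -0.21 to -0.18. Without HELZ-null replicate 1 the calls of PFKM, ENO1 and TALDO1 were lost, and without WT replicate 1 that of PFKM. LDHA (-0.08) and PFKFB2 (0.25) were called without WT replicate 1 and PGAM1 (-0.09) without WT replicate 2. At an FDR under 0.05 these 3 genes and ALDOC passed as well. The cause was not tested. Replicate numbers are shared between the cell types, but same-numbered libraries did not deviate together (r = 0.02 over 10767 genes). With a replicate block 12 genes were down- and 4 up-regulated and GAPDH was at -0.19. The common biological coefficient of variation was 2.6%, and standard errors grew as counts fell, from 0.025 for GAPDH to 0.084 for ALDOC and 0.105 for PFKFB4. Changes of the size called in abundant genes could therefore be missed in the less abundant ones.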
